A study of Brassica napus with 3 samples.

Results

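Pseudochromosome 6 of the Brassica rapa reference carried 5785 of the 59136 summits of trimethylated lysine 4 on histone H3 (H3K4me3) that were listed for leaf chromatin of 2 canola lines. Its members are all summits whose sequence name ends in chromosome number 6: 2701 of the 27672 control summits and 3084 of the 31464 PEG1 summits. The plants were Brassica napus of the cultivar type spp. oleifera f. biennis, untreated and 26 days old, and the tissue was leaf. One library came from the control line and one from PEG1, which the labels call a selected epiline. Another library, made from the control line without antibody, was not analysed here. Each line is represented by 1 library, so no difference between the lines has a replicate check, and no test between them was possible. The intervals given are 95% intervals and cover counting error only.

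H3K4me3 is written by methyltransferases that act alongside transcription, and it sits on the first nucleosomes of transcribed genes. In plants it forms short domains at gene starts and is scarce over repeats and silent heterochromatin, so that its summits trace the gene-rich parts of a chromosome. Canola arose by hybridisation of B. rapa, the source of its A chromosomes, with B. oleracea, the source of its C chromosomes. A pseudochromosome of B. rapa therefore stands in for an A chromosome of canola. The sources used here do not say how reads from the C chromosomes were treated. The chromatin was digested with micrococcal nuclease without crosslinking, so that the signal comes from nucleosome-sized fragments. Summits were not assigned to genes, because an annotation of this build was not used here. For the same reason leaf marker genes were not checked and no sequence is shown.

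Densities are given over the span from the first to the last listed summit. The sequence length of the pseudochromosome was not used here. The lowest listed position was 481 and the highest 24930526, a span of 24.9 Mb. Over this span the control had 108.3 summits per Mb and PEG1 had 123.7. On the other pseudochromosomes numbered 1 to 10, control densities ran from 88.5 per Mb on pseudochromosome 4 to 119.8 on pseudochromosome 3, and PEG1 densities from 103.7 to 134.5 on the same 2. Pseudochromosome 6 was thus the second most densely marked of these 10 in both lists.

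PEG1 had 1.14 times as many summits as the control (interval 1.08 to 1.20). The interval treats the lists as independent counts, although most sites are shared by both. The ratios on the other 9 ran from 1.12 on pseudochromosome 7 to 1.17 on pseudochromosome 4, a range that includes that of pseudochromosome 6. Score is the peak caller's significance on a −log10 scale, and it rises with read depth, which is unknown here. The control scores had a median of 13.6 and reached 80.5. The PEG1 scores had a median of 17.7 and reached 100.9. Scores of both lines set side by side therefore do not measure a change of H3K4me3. A greater depth of the PEG1 library and more marked sites in PEG1 cannot be told apart.

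The density of the mark rose and fell along the pseudochromosome at the same places in both lines. In 5 successive blocks of 5 Mb, the last of them slightly shorter, the control had 117.2, 117.8, 72.8, 102.8 and 131.4 summits per Mb. PEG1 had 133.2, 133.0, 84.2, 117.6 and 150.9 per Mb in the same order. The central block was the sparsest and the last block the densest in each line. Across the 49 whole windows of 500 kb the control counts ran from 14 to 80 with a median of 56, and the PEG1 counts from 15 to 89 with a median of 63. The counts of both lines correlated with r = 0.98 across these windows. This value is a description, since both lists share the reference, its mappable bases and its gene content.

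**Figure D1:**
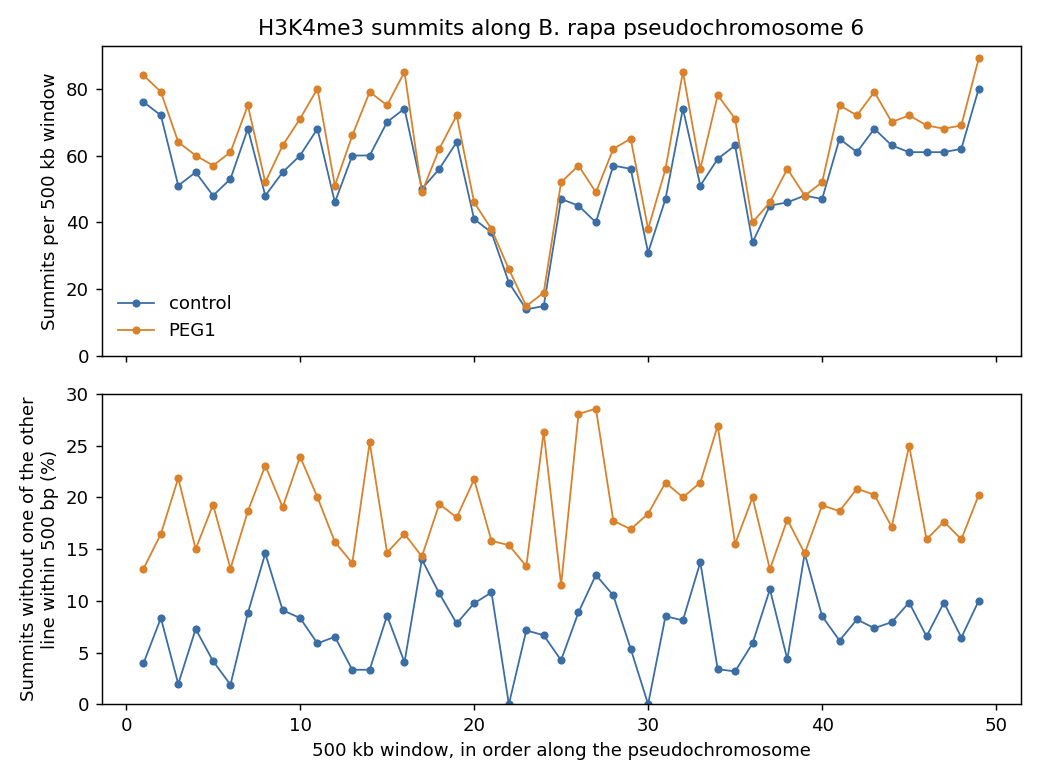
Top, H3K4me3 summits per whole 500 kb window (points) along B. rapa pseudochromosome 6 in the control and PEG1 libraries; bottom, the percentage of each line's summits in the window that lay over 500 bp from every summit of the other line. Both lines dip to their lowest counts, 14 and 15, in the same window. The share in the bottom panel runs from 0 to 14.6% in the control and from 11.5 to 28.6% in PEG1.

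The sparsest stretch lay a little before the middle. Its length of 1.5 Mb follows from taking the 3 windows of 500 kb with the fewest summits. These windows adjoined one another, from 10500001 to 12000000. In their order along the sequence the control had 22, 14 and 15 summits and PEG1 had 26, 15 and 19. Together this gave 34.0 control and 40.0 PEG1 summits per Mb. The equally long stretch before it, from 9000001, had 94.7 and 104.0 per Mb, and the one after it, up to 13500000, had 88.0 and 105.3 per Mb. The stretch before includes the window from 10000001, which had only 37 control and 38 PEG1 summits. The 3 windows were picked by their summits of both lines together, so low counts there follow from the choice. Each line's own 3 lowest counts fell in these windows. Gene content and the position of the centromere were not analysed here.

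The median score of the summits within this stretch lay close to that of their list, but it varied between its windows. It was 13.6 in the control, against 12.5 before and 15.3 after the stretch, and 16.9 in PEG1, against 17.5 and 16.2. The first of the 3 windows, from 10500001, had the lowest control median score of all 49 whole windows, at a median percentile of 31.2, while its PEG1 summits had a median score of 16.6 and a median percentile of 47.9. The best control summit there, at 11998604, scored 51.4, and the best PEG1 summit, at 11105384, scored 59.6. Most of them had a summit of the other line nearby. Of the 51 control summits 43 had a PEG1 summit within 150 bp, or 84.3% (interval 71.99 to 91.8), and the stretches before and after gave 76.1% (68.4 to 82.3) and 81.1% (73.5 to 86.8). Of the 60 PEG1 summits 43 had a control summit within 150 bp, or 71.7% (59.2 to 81.5), against 69.2% (61.6 to 75.9) before and 67.7% (60.1 to 74.5) after. Within each line these intervals overlap. Over 500 bp from any summit of the other line were 2 of the 51 control and 11 of the 60 PEG1 summits. The stretch before had 13 of 142 and 29 of 156 such summits, and the one after 11 of 132 and 36 of 158. Along all of pseudochromosome 6 their share was 7.40% in the control and 18.8% in PEG1. Within the sparse stretch the distance between neighbours had a median of 15232 bp in the control and 11413 bp in PEG1. It was 5210 and 5151 bp just before the stretch and 7077 and 6174 bp just after it. Wide spacing there follows from the choice of the windows with the fewest summits.

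The longest interval free of any summit lay inside this stretch. Between 11372708 and 11506384 neither line had a summit over 133676 bp, and the window from 11400001 to 11500000 was the only one of 249 windows of 100 kb that was empty. Control and PEG1 summits 22 bp apart closed its left side, with scores of 16.9 and 21.0. The next longest empty intervals were 111964 bp, from 11642988 to 11754952, and 99420 bp, from 11005481 to 11104901. Both belong to the same sparse stretch. The remaining 2 of the 5 longest, of 96837 and 96769 bp, adjoined each other around a single marked site near 14847470, where the control summit scored 16.9 and the PEG1 summit, 270 bp away, scored 11.6. In all, 25 intervals over 50 kb lacked summits of both lines and together made up 7.44% of the span.

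In the control alone the longest interval was wider, 169460 bp, from 11372708 to 11542168. PEG1 had 3 summits within it that the control list lacked, at 11506384 (score 5.07), 11508897 (9.81) and 11509572 (14.2), each at least 32596 bp from any control summit. This interval was looked up after its length had been seen. The scores of the 3 summits lay below the PEG1 median. On the other pseudochromosomes 1 to 10 the longest control interval ran from 111752 bp on pseudochromosome 8 to 674756 bp on pseudochromosome 1, so that the interval of pseudochromosome 6 ranked 8 of 10 by length.

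The densest whole windows lay at the start, near the last summit and at 1 place on either side of the sparse stretch. The shorter last window, from 24500001 to 24930526, was not ranked and had 66 control and 81 PEG1 summits. The window from 24000001 to 24500000 had the most, with 80 control and 89 PEG1 summits. The first window, from 1 to 500000, had 76 and 84. The windows from 7500001 to 8000000 and from 15500001 to 16000000 tied, each with 74 and 85. The one from 7500001 also held the 2 fullest windows of 100 kb, from 7600001 with 22 control and 27 PEG1 summits and from 7500001 with 22 and 23. Next came the window from 9200001 to 9300000, with 23 control and 20 PEG1 summits. The median window of 100 kb had 11 and 12. Dense windows did not hold stronger summits: the median score was 14.1 in the control and 17.7 in PEG1 over the 12 densest windows of 500 kb, and 14.3 and 17.96 over the 12 sparsest.

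Counts per window varied less, relative to their mean, than on most other pseudochromosomes. The coefficient of variation over 500 kb windows was 0.271 in the control and 0.274 in PEG1. On the other 9 it ran from 0.271 to 0.398 in the control and from 0.250 to 0.392 in PEG1, which places pseudochromosome 6 at rank 9 of 10 in both lists. Only pseudochromosome 4 was lower, in the control by a margin lost in rounding. These are values of 1 library each and were not tested against one another.

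Marked sites followed one another at a few kilobases. Neighbouring summits of the control lay a median of 5674 bp apart (interval 5402 to 5985), with 25% of the intervals at or under 2782 bp and 75% at or under 11645 bp. In PEG1 the median was 4963 bp (4737 to 5215), and the same shares lay at or under 2403 and 10020 bp. The shorter spacing in PEG1 goes with its longer list. The mean spacing, 9233 bp in the control and 8086 bp in PEG1, lay well above the median in each line, since a few long intervals took up much of the sequence. Intervals over 20 kb were 10.5% of all control intervals and covered 38.9% of the span, and in PEG1 they were 7.59% and covered 32.2%.

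**Figure D2:**
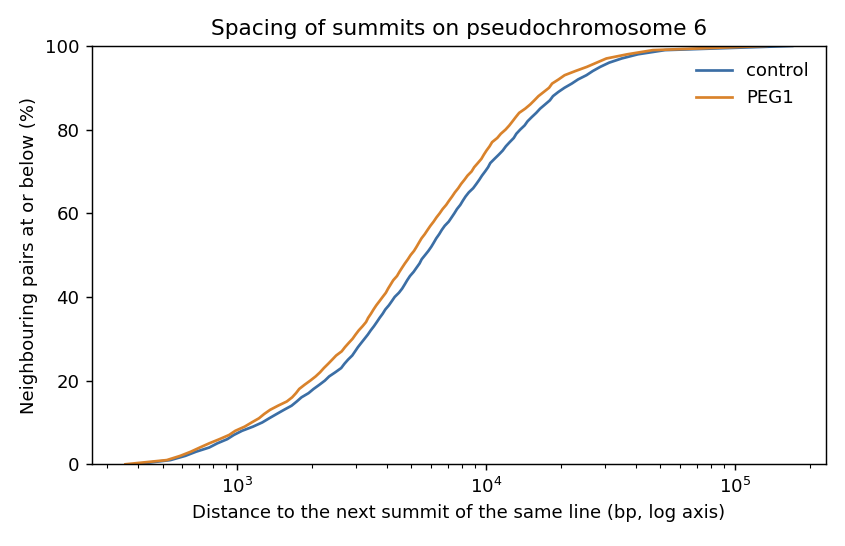
Cumulative percentage of neighbouring summit pairs (vertical axis) at or below each distance (horizontal axis, bp, log scale) on pseudochromosome 6, 1 line per library. The PEG1 curve lies to the left of the control curve over most of the range, with medians of 4963 and 5674 bp.

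Very close neighbours were few. The shortest distance was 389 bp in the control and 355 bp in PEG1, and 19 control and 28 PEG1 pairs lay at or under 500 bp. Up to 1000 bp there were 206 control pairs, 7.63% of its intervals, and 255 PEG1 pairs, 8.27%. In bins of 100 bp between 500 and 1000 bp the control had 28 to 50 pairs and PEG1 39 to 51. The fullest of the 5 was the last one in the control and the one from 600 to 700 bp in PEG1. How close 2 summits may be listed depends on how the peak caller separates peaks, so the lack of pairs under 355 bp is not read as a property of the chromatin.

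The closest pair common to both lines lay at 4542239 and 4542628 in the control and at 4542237 and 4542593 in PEG1. The first members were 2 bp and the second 35 bp apart between the lines, and all 4 summits scored below their list median, at 6.74 and 5.73 in the control and 13.8 and 8.05 in PEG1. The next closest control pairs were at 12737138 and 12737554, where PEG1 had a single summit 497 bp before the first, and at 3871671 and 3872096, where PEG1 had both, 4 and 13 bp away. The closest PEG1 pair of all, 355 bp apart, was at 24147678 and 24148033, and the PEG1 pair next after the common one, 392 bp apart, was at 734525 and 734917. In each of them the second summit was weak, with scores of 1.70 and 2.12, and the control had 1 summit within 500 bp of the pair. Of all control pairs up to 1000 bp apart, 90 of 206, or 43.7%, had a PEG1 summit within 150 bp of both members. Of the PEG1 pairs 85 of 255, or 33.3%, were found in the control in this way.

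Crowded summits were weaker and were placed less alike than spaced ones. In the control, summits with a neighbour within 1000 bp had a median score of 9.85, and 68.3% (interval 63.6 to 72.7) had a PEG1 summit within 150 bp. Those whose nearest neighbour was 5 to 20 kb away had a median score of 15.3, and 81.9% (79.1 to 84.4) were matched. In PEG1 the scores were 12.3 and 19.3, and the matched shares 60.4% (56.01 to 64.6) and 71.8% (68.6 to 74.8). The same order was seen in both lines. Summits over 20 kb from any other of their line were only 49 in the control and 38 in PEG1, and their matched shares, 77.6% and 73.7%, had intervals over 20 percentage points wide.

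Most marked sites of pseudochromosome 6 were found in both lines at nearly the same base. Matching allowed 150 bp, about the length of DNA on a nucleosome. It joined 2119 summits of each list, 78.5% of the control list (interval 76.9 to 79.96) and 68.7% of the PEG1 list (67.1 to 70.3). For comparison, 3.72% of the bases spanned by the control list lay within 150 bp of a PEG1 summit. Of those spanned by the PEG1 list, 3.26% lay within 150 bp of a control summit. These shares treat all bases alike, whereas the mark sits at gene starts, so unrelated lists of it could match more often. The matched shares of the other pseudochromosomes 1 to 10 ran from 77.01 to 80.3% in the control and from 68.1 to 71.1% in PEG1. Pseudochromosome 6 lay within both ranges.

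Within these 2119 pairs the summits were a median of 29 bp apart, and the middle 50% lay between 12 and 57 bp apart. At 36 sites both lines gave the same base. PEG1 lay at the higher coordinate in 1048 pairs and at the lower in 1035, which is 50.3% (interval 48.2 to 52.5) of the pairs that differed, so that no shift in one direction along the sequence was seen. The transcribed strand is not known here, and a shift relative to it was not tested. Extending the search to 1000 bp and keeping summits that were each other's nearest gave 2535 pairs. Of these 235, or 9.27%, were over 150 and up to 300 bp apart, 132, or 5.21%, over 300 and up to 500 bp, and 49, or 1.93%, over 500 bp.

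**Figure D3:**
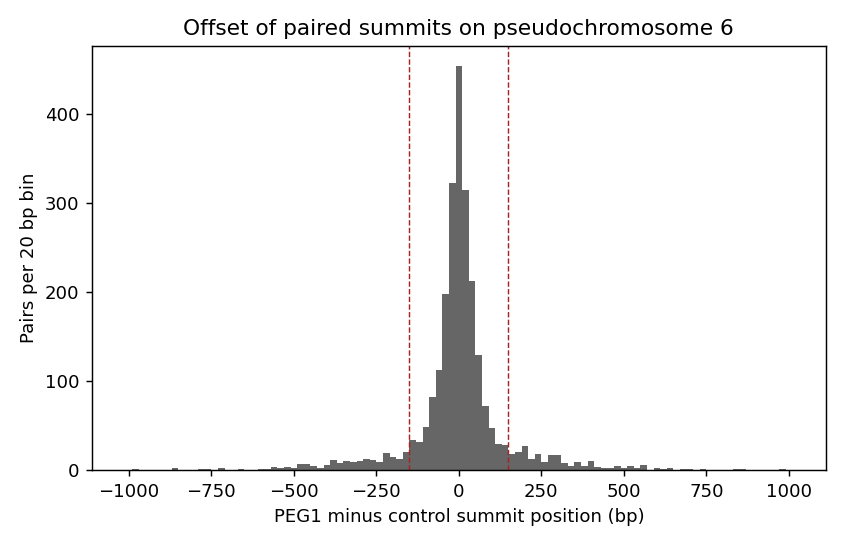
Number of paired summits per 20 bp bin (vertical axis) by the position of the PEG1 summit minus that of its control partner in bp (horizontal axis), for 2535 pairs within 1000 bp; dashed lines mark 150 bp. The pairs gather around 0 on both sides alike, with 2119 of them between the dashed lines.

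Stronger sites lay closer together between the lines. The control summits were sorted by score and cut into 4 equally large classes. Among pairs within 1000 bp, 72.6% of those with a control summit of the weakest class were within 150 bp, and 92.2% of those with one of the strongest class. The median distance of pairs within 150 bp was 35 bp in the weakest class, then 30 and 28 bp, and 23 bp in the strongest.

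Paired sites held similar ranks by score. Across the 2119 pairs Spearman's rho of the scores was 0.82, a description over sites that share the reference and their local base composition. As a percentile of its own list, the score of a site differed between the lines by a median of 10.4 points, and by more than 28.4 points for 10% of the pairs. Paired sites stood a median of 3.67 points higher in PEG1, and higher in 1301 of 2119 pairs. In the weakest score class of each list, 59.3% of the control and 34.4% of the PEG1 summits were matched within 150 bp. The part of these unequal shares in the shift was not tested. Scores took few distinct values: the 2701 control summits had 688 and the 3084 PEG1 summits 828, and 82.9% of the summits of each list shared their score with another. The commonest scores were 12.9 in the control, with 72 summits, and 15.3 in PEG1, with 55, so that small differences in rank have little meaning. Of the 617 pairs whose control summit was in the strongest class, 494 had a PEG1 summit in the strongest class of its list. None had one in the weakest class. In 2 pairs the PEG1 summit was in the strongest and the control summit in the weakest class.

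**Figure D4:**
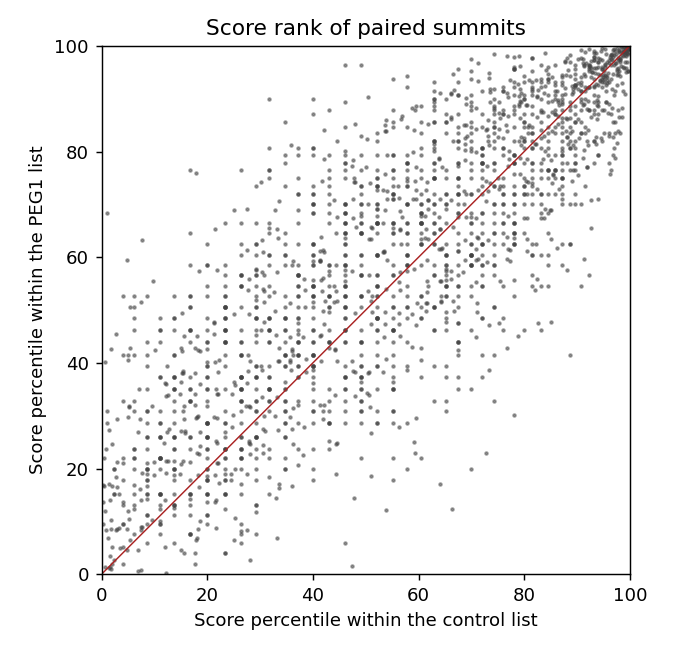
Score percentile of each of 2119 paired summits within the control list (horizontal axis) and within the PEG1 list (vertical axis) of pseudochromosome 6; each point is a pair and the line marks equal percentiles. Points lie along the line with a median distance of 10.4 percentile points, the upper left and lower right corners are nearly empty, and tied scores give the rows and columns of points.

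The 5 best-scored control summits were at 15582338 (80.5), 7346563 (75.7), 21586985 (71.6), 16721404 (70.7) and 20408448 (69.7). Each had a PEG1 summit within 15 bp, with PEG1 scores of 82.1, 81.2, 78.6, 74.8 and 84.2, and these ranked 8, 9, 13, 17 and 5 in the PEG1 list. The 5 best-scored PEG1 summits were at 8981748 (100.9), 8284429 (97.2), 7858255 (95.96), 21011964 (93.96) and 20408450 (84.2). Their control partners lay within 27 bp and ranked 6, 16, 6, 44 and 5, those of the first and of 7858255 being tied at a score of 69.3. Only the site near 20408450 was among the best 5 in both lines. Of the 5 best in PEG1, 3 lay between 7858255 and 8981748, the first of these inside the dense window that begins at 7500001.

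The pairs whose rank differed most went from the weaker part of one list to the stronger part of the other. PEG1 stood higher at 7575465, where the control score was 2.00 (percentile 1.07) and the PEG1 score 143 bp away was 25.3 (percentile 68.4). It also stood higher at 9992161, with 5.80 in the control (percentile 16.7) and 29.9 in PEG1 (76.5), and at 4970013, with 9.13 (31.8) and 41.5 (89.96). PEG1 stood lower at 18066956, where the control score was 18.9 (percentile 66.3) and the PEG1 score 5.57 (percentile 12.4). It stood lower too at 6033953, with 20.4 in the control (percentile 69.9) and 7.51 in PEG1 (19.96), and at 7796705, with 21.3 (72.9) and 8.62 (22.9). These 6 sites are the extremes of 2119, so that their size is given without a test.

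Summits of 1 line without a summit of the other within 500 bp, called line-only in what follows, numbered 200 in the control and 580 in PEG1. They were 7.40% (interval 6.48 to 8.45) of the control list and 18.8% (17.5 to 20.2) of the PEG1 list. Over all 11 B. rapa pseudochromosomes the shares were 7.76% in the control and 18.7% in PEG1, so that pseudochromosome 6 was near the background in each. A longer list has more summits that can go unmatched. With the best-scored 2701 summits of each line the counts were 317 in the control and 327 in PEG1, a setting that forces the matched numbers together.

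Line-only summits were mostly weak. Their median score was 5.80 in the control and 6.28 in PEG1, against 15.3 and 22.2 for summits matched within 150 bp. In the weakest of 4 score classes, 18.2% (15.5 to 21.3) of the control and 51.8% (48.2 to 55.3) of the PEG1 summits were line-only. In the strongest class the shares were 2.07% (1.24 to 3.45) and 2.08% (1.28 to 3.34). The lines differed in the weak classes and had nearly the same share in the strongest. Each class is cut from the line's own list, and the PEG1 list is longer. The part of list length and depth in this difference was not tested.

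**Figure D5:**
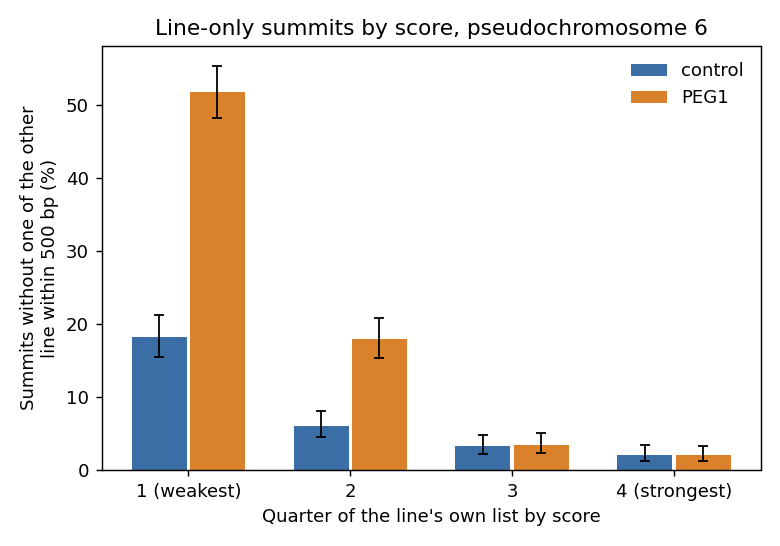
Percentage of summits over 500 bp from every summit of the other line (vertical axis, bars; error bars are 95% Wilson intervals) by score class of the line's own list (horizontal axis, 4 equal classes from weakest to strongest) on pseudochromosome 6. The PEG1 bar falls from 51.8 to 2.08% and the control bar from 18.2 to 2.07%.

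The few strong line-only summits had a summit of the other line nearby. All 14 of the strongest control class and all 16 of the strongest PEG1 class had a summit of the other line more than 500 and at most 1495 bp away, at a median of 802 and 773 bp. For 12 of the 14 and 13 of the 16, that nearest summit was line-only as well. The best control case, at 22001671 (score 32.6), and a PEG1 summit at 22002508 (43.6) were 837 bp apart. Another such pair was at 4668211 in the control (29.3) and 4668899 in PEG1 (39.6), 688 bp apart. The other named control cases were at 23043097 (30.4), 18588836 (30.3) and 4577546 (29.4), with PEG1 summits 1147, 1495 and 561 bp away that scored 39.5, 35.1 and 37.5.

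The strongest PEG1 case of all was at 22589549 (51.3), 1016 bp from a control summit that scored 27.2. At 19970411 (49.8) the control summit 550 bp away scored 12.1 and ranked 1515 of its list. The remaining one, at 23044244 (39.5), had a control summit 1038 bp away that scored 15.3. Because only summits and no peak boundaries were used, a wide domain with its highest point at either end in the 2 lines would be listed in this way. Peak boundaries were not analysed here, and this was not tested.

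Summits far from any of the other line were of low to middling score. With none of the other line within 2000 bp there were 49 control summits, 1.81% of the list against 2.06% over all pseudochromosomes, and 306 PEG1 summits, 9.92% against 10.4%. None of either line was in the strongest score class. The best-scored of the control were at 24151160 (15.3), 8414694 (13.7) and 5471204 (12.9), with PEG1 summits 2273, 2678 and 2936 bp away. Those of PEG1 were at 3594981 (28.7), 15153633 (26.2) and 24647611 (22.3), with control summits 4882, 2229 and 4676 bp away. The PEG1 cases reached percentiles of 61.4 to 74.3 of their list, and the control cases 46.0 to 55.2.

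Line-only summits were spread over the whole span in both lines. Their share per 500 kb window had a median of 7.81% in the control, with a range of 0 to 14.6%, and of 18.4% in PEG1, with a range of 11.5 to 28.6%. The highest PEG1 share was in the window from 13000001 to 13500000, where 14 of 49 summits were line-only. The highest control share was tied between the windows from 3500001 to 4000000 and from 19000001 to 19500000, each with 7 of 48. In the 12 densest windows the shares were 6.59% (5.10 to 8.49) in the control and 19.2% (16.8 to 21.8) in PEG1, and in the 12 sparsest 8.57% (6.26 to 11.6) and 18.6% (15.3 to 22.4). Within each line these intervals overlap.

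Most line-only summits had no line-only neighbour in their own list. Line-only summits were 7.40% of the control list and 18.8% of the PEG1 list, and at such shares single ones are common. Whether they cluster was not tested. In the control 175 stood alone, 11 runs had 2 and 1 run had 3 in a row. In PEG1 375 stood alone, 80 runs had 2, 11 had 3 and 3 had 4. The longest control run went from 24151160 to 24163886, and its best score was 15.3. The next were pairs at 992031 to 993526 and at 24879715 to 24880143, with best scores of 16.2 and 15.9.

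The 3 longest PEG1 runs differed in kind. The run from 13436405 to 13448046 held 4 summits scoring 5.69, 6.28, 7.64 and 4.53, each at least 9030 bp from any control summit. Its 4 summits are among the 14 line-only summits that give the window from 13000001 the highest PEG1 line-only share. The run from 5089675 to 5096951 held 4 scoring 5.15, 2.81, 3.26 and 10.4, at 1123 to 5602 bp from the control. The run from 4824700 to 4866641 opened with a strong summit, scoring 35.5, that had a control summit 854 bp away, and went on with 3 weaker ones scoring 5.25, 5.11 and 12.3 that were 8918 to 14368 bp from the control. Except for that opening summit, every member of the 3 runs scored below the PEG1 median.

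The balance of the lines hardly changed along the sequence. PEG1 held 53.3% of all summits of both lines, and more than the control in 47 of the 49 whole windows, as many in 1 and fewer in 1. Over the 46 windows with at least 50 summits its share ran from 49.5 to 56.9%, with an SD of 1.55 percentage points. In all 46 the exact binomial interval of the window included 53.3%. Most sites are shared by both lists, so these intervals are wider than the scatter of the windows. That they include 53.3% therefore says little about the balance. The highest shares were in the windows from 16500001 (59 control and 78 PEG1 summits), 6500001 (60 and 79) and 12500001 (45 and 57). The lowest were in those from 8000001 (50 and 49), 19000001 (48 and 48) and 18000001 (45 and 46).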

How the data were processed

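H3K4me3 summit lists of 1 control and 1 PEG1 library were analysed. The authors called peaks with MACS2 2.0, per the submitters' processing notes. The deposited score is a −log10 significance as the authors' caller gave it, with minima of 1.31 and 1.30 on pseudochromosome 6, just above the −log10 of 0.05 (1.30). The sources used here do not give the aligner, the background library, any filter, or whether the score is a p-value or a q-value. Per the sequence names, coordinates are those of the BGI pseudochromosomes V1 of BR5307, and they are given 1-based. Read depth is unknown.

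Nearest distances, windows and spacing were computed with pandas 2.3.3 and NumPy 2.4.6 in Python 3.11.15, intervals with SciPy 1.17.1 and plots with matplotlib 3.10.9. Summit matching was first tested on simulated data. Intervals are Wilson for shares and exact binomial for window shares; the ratio of counts has an exact conditional interval and medians of spacing have an order-statistic interval. Matching used 150 bp, line-only summits 500 bp and windows 500 kb. The regions named are the extremes by score, density, empty length, distance, run length, PEG1 share and percentile difference. The members and lists were chosen with earlier results of these data known. The alternatives tried were other distances, other window sizes, joined summits, better-scored summits and equally long lists.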

Additional observations from a re-analysis of the deposited data

How the results depend on the processing

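No paired analysis was possible because each line has 1 library and no result comes from a test. Leaving out a library was not possible either. Of 36 alternative values, 10 stayed within their interval or, for counts, within 1.5 times, and 26 did not. The matched shares rise with the distance allowed by construction: 55.98, 87.2 and 96.4% of control and 49.03, 76.3 and 85.8% of PEG1 summits within 50, 300 and 1000 bp. With equally long lists both were 75.4%. Control-only summits numbered 347, 97 and 49 when none was allowed within 300, 1000 and 2000 bp, and PEG1-only summits 306 at 2000 bp. With equally long lists they numbered 317 and 327. The ratio of PEG1 to control summits was 1.35 at or above the control median score, a cut that keeps more of a list with higher scores. The better-scored part of each list had median spacings of 12019 and 10131 bp, as a list with fewer summits must. The densest windows, 1 in 4 by each line's own count, held 31.95% of the control and 32.1% of the PEG1 summits that lay in whole windows. With 200 kb windows they held 35.8 and 35.7%, and with the better-scored part of the list 34.4% in the control; the cause was not tested. The score difference between matched and line-only summits was 9.45 and 15.9, and 11.2 and 16.2 at 2000 bp. The median offset was 34 bp for pairs within 300 bp and 24.5 bp in the better-scored part of both lists. The SD of the PEG1 share was 1.88 points over 59 windows of 200 kb and 0.973 points over 24 windows of 1000 kb. Unknown depth limits what the absence of weak summits in the control can show.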
